A study of Rattus norvegicus with 82 samples.

Results

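The heat shock chaperones are a group of 10 genes that encode proteins which hold, fold or refold other proteins: Hsph1, Hspa8, Hsp90aa1, Hsp90ab1, Hspd1, Hspe1, Dnajb1, Dnaja1, Hspb1 and Cryab. They were looked up by symbol in the annotation of a rat expression array, and where a gene had several probe sets (the groups of probes that report 1 transcript) the one with the highest mean over all 82 arrays was used. Of the 10 genes, 8 were found and analysed, out of 14217 genes with a probe set of 1 symbol. Hspa8, the constitutive Hsp70, and Hsp90aa1, the stress-responsive Hsp90, were on the array only through probe sets that also carried a second symbol. That symbol was Haus8l2 for Hspa8 and Hsp90aa1-ps17 for Hsp90aa1, so neither gene was analysed here. All 8 genes passed the filter on low intensities, which left 11319 genes to test.

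The arrays measured heart RNA of male Wistar (Crl:Wi(Han)) rats after 1 intravenous dose of a drug that binds tubulin, the subunit of microtubules. At 24 h and again at 6 h after the dose there were 7 groups of 5 or 6 animals. They received vinblastine (3 mg/kg or 0.5 mg/kg), vincristine (1 mg/kg or 0.1 mg/kg), colchicine (2 mg/kg or 0.2 mg/kg) or the 0.9% saline that was also the solvent of every drug. Both vincristine 0.1 mg/kg groups held 5 arrays and the other 12 groups held 6. Each array is a separate rat, and the age of the rats and the part of the heart taken are not given in the labels. Vinblastine and vincristine are closely related vinca alkaloids, which differ in a methyl or a formyl group on 1 nitrogen, and colchicine is a different structure that binds another site of tubulin.

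Chaperones work in relays. Small heat shock proteins (Hspb1, also called Hsp27, and Cryab, αB-crystallin) bind unfolding proteins without using ATP and are abundant in heart muscle, where they associate with the sarcomere and the cytoskeleton. Hsp70 proteins fold their clients in ATP-driven cycles that J-domain proteins (Dnajb1, Dnaja1) start and Hsp110 proteins (Hsph1) help to reset, Hsp90 proteins (Hsp90ab1) finish the folding of signalling proteins, and Hspd1 (Hsp60) with its lid Hspe1 (Hsp10) forms the folding chamber of the mitochondrial matrix. In a heat shock, the transcription factor Hsf1 binds heat shock elements, which are inverted repeats of the unit GAA, and raises most of these genes together.

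The promoters of the members whose levels moved most are shown first, since a shared element and a shared start region are what these genes are known for. The windows were taken from RefSeq promoter sequences of build GRCr8 (250 bases before to 50 after each gene's annotated start). Hsph1, Hspa8, Hsp90ab1, Hspd1, Hspe1, Dnajb1, Dnaja1 and Hspb1 were found there, and Cryab and Hsp90aa1 were not. The 250 bases before the start are printed 5′ to 3′ in the direction of the gene, with every 2-unit heat shock element (GAANNTTC or TTCNNGAA, N being any base, each of which reads the same on both strands) in capitals.
Hspb1, chr12:26432302-26432551 (minus strand): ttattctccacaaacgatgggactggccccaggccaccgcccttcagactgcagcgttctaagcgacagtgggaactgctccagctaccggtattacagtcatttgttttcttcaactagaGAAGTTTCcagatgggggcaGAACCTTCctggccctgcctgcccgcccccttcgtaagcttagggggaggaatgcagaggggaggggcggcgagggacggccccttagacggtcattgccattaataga
Hspe1, chr9:64084077-64084326 (plus strand): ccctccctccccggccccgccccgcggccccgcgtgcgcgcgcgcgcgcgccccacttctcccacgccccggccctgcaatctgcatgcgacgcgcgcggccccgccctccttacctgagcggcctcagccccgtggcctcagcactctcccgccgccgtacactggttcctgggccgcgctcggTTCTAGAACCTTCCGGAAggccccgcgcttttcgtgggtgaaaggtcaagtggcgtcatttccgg
Hsph1, chr12:10427118-10427367 (plus strand): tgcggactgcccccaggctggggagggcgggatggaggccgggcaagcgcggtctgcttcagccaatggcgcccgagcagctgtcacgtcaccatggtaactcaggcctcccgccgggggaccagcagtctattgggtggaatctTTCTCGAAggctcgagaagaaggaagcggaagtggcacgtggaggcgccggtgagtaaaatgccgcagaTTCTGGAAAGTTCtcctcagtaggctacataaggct

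Hspb1 had 2 separate 2-unit elements, which began at positions -129 and -109 from the start, and no 3-unit element (3 alternating GAA and TTC units set 2 bases apart). Hspe1 and Hspd1 lie head to head on opposite strands of chromosome 9 with 290 bases between their starts, so their windows share 211 bases and the same element. That element held 3 overlapping 2-unit matches and 2 overlapping 3-unit matches, and began at -65 from the Hspe1 start and at -242 from the Hspd1 start. Hsph1 had 3 matches to the 2-unit element, of which 2 overlap in a 3-unit element at -36. Dnaja1 had 3 matches, 2 of them in a 3-unit element that began 10 bases after its start, Dnajb1 had 2 separate 2-unit matches and Hsp90ab1 had none in its window. Hspa8, whose level was not analysed, had 4 matches to the 2-unit and 2 to the 3-unit element. Among 33469 promoter windows of 300 bases, 15.9% held a 2-unit and 0.798% a 3-unit element. A match describes the letters only and shows no binding.

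**Figure D1:**
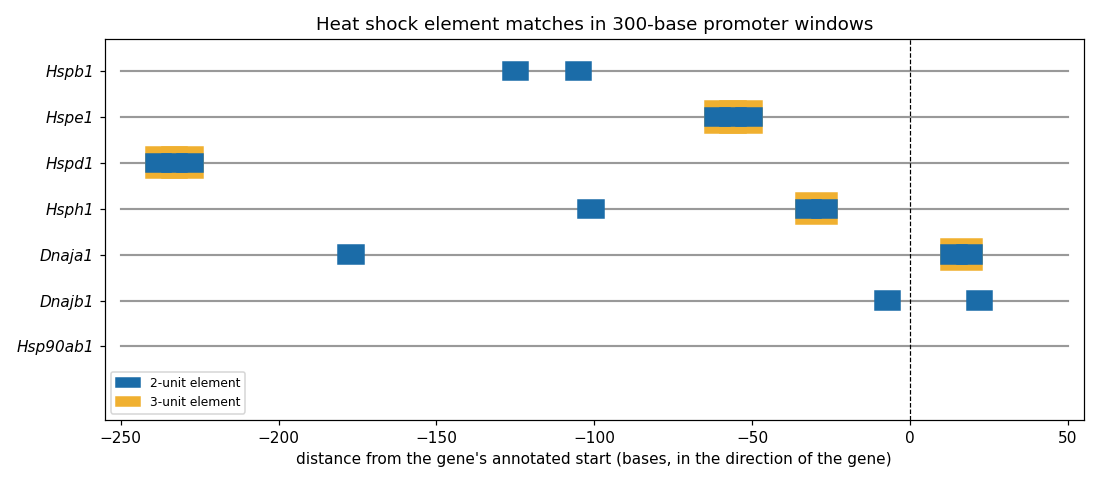
Matches to the heat shock element in the 300-base promoter windows of 7 chaperone genes, by distance in bases from the annotated start (dashed line, negative values upstream). Blue boxes are 2-unit and yellow boxes 3-unit matches, and Hspe1 and Hspd1 show the same stretch of DNA, near the start of Hspe1 and far from that of Hspd1.

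Values are linear intensities per probe set as the authors deposited them, between 9.76 and 39497 over all probe sets, with array medians between 57.6 and 63.3. Differences are given on the scale log2(intensity + 16), which shrinks the changes of dim genes. They come from 1 limma fit over all 82 arrays and 14 groups, with p-values adjusted by Benjamini-Hochberg over the 11319 genes, and a gene is said to have risen or fallen where its adjusted p was under 0.05. The comparisons at 1 time share their saline rats, so they are not independent of each other. By distance over all genes, 10 of the 82 arrays lay clearly nearer to the middle of another group than to that of their own, among them replicate 1 of colchicine 2 mg/kg at 24 h, nearest to colchicine 0.2 mg/kg at 24 h, and replicate 1 of vinblastine 3 mg/kg, replicate 3 of vincristine 1 mg/kg and replicate 4 of colchicine 2 mg/kg at 6 h. Leaving out these 10 arrays tightens the groups by the rule itself, so lower p-values without them are no separate check. The 6 cardiomyocyte markers measured were bright on every array, the dimmest being Ryr2 at 5920 or more. The summed intensity of 4 atrial markers differed widely between animals, between 979 and 15039 in the saline hearts at 6 h. The RNA is from tissue in bulk, so fewer cells of a type and less RNA per cell cannot be told apart.

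**Figure D2:**
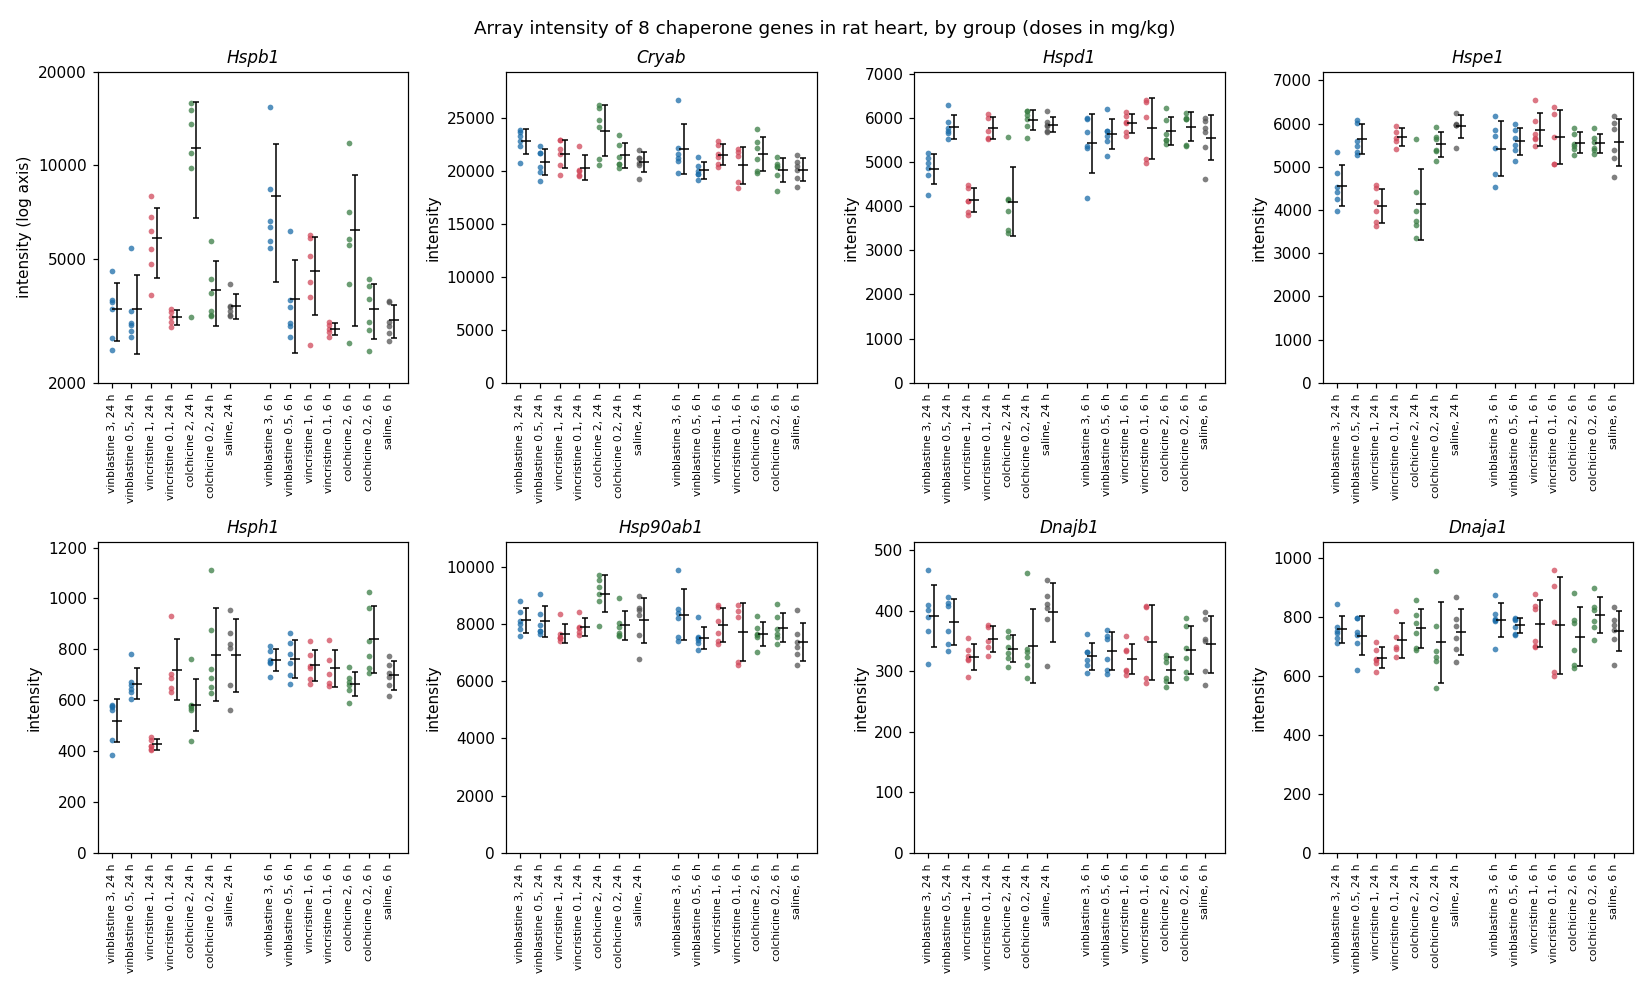
Intensity of the 8 chaperone genes on each array (points, 1 rat each), with the mean and SD of each group beside them, for 7 groups at 24 h and 7 at 6 h (doses in mg/kg; log axis for Hspb1, linear axes from 0 for the others). Hspb1 spreads upwards in the higher-dose groups other than vinblastine 3 mg/kg at 24 h, while Hspd1, Hspe1 and Hsph1 sit low in the 3 higher-dose groups at 24 h.

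At 24 h the mitochondrial chaperonin genes Hspd1 and Hspe1 and the Hsp110 gene Hsph1 were lower in the hearts of all 3 higher-dose groups than in saline hearts. The small heat shock protein gene Hspb1 went the other way with colchicine and with vincristine and did not pass the test with vinblastine. With vinblastine 3 mg/kg 0 of 8 members rose and 3 fell, where 5.29% of all tested genes rose and 4.28% fell (9.58% either way). With vincristine 1 mg/kg 1 rose and 4 fell, against 12% and 18.4% of all genes (30.4% either way). Colchicine 2 mg/kg moved 7 of 8 members, 3 up and 4 down, where 19.3% of all genes rose and 25.3% fell (44.6% either way). The median log2 difference of the 8 members was -0.04 with vinblastine, -0.22 with vincristine and -0.10 with colchicine, while that of all genes was -0.01, -0.01 and 0.00. Under quantile normalization 50.1% of the genes called with vincristine at 24 h rose, against 39.5% on the deposited scale.

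Hspd1, the subunit of the mitochondrial folding chamber, had a lowest, median and highest intensity of 4249, 4920 and 5196 with vinblastine 3 mg/kg, of 3806, 4112 and 4477 with vincristine 1 mg/kg, of 3399, 4017 and 5567 with colchicine 2 mg/kg, and of 5668, 5823 and 6154 with saline. Every one of the 18 treated hearts was below every saline heart. Hspd1 fell by 0.27 ± 0.07 with vinblastine (log2, SE, adjusted p = 0.00712), by 0.50 ± 0.07 with vincristine (adjusted p = 1.22e-07) and by 0.53 ± 0.07 with colchicine (adjusted p = 6.78e-09), to 82.8%, 70.7% and 69.3% of saline. The highest colchicine heart was replicate 1, the array nearest to the lower dose, and without the 10 arrays that lay nearer another group the colchicine difference was -0.62 (adjusted p = 1.32e-13).

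Hspe1, the lid of the chamber, ran beside it. Its lowest, median and highest intensities were 3980, 4471 and 5330 with vinblastine 3 mg/kg, 3636, 4078 and 4575 with vincristine 1 mg/kg, 3348, 3856 and 5637 with colchicine 2 mg/kg and 5441, 5974 and 6251 with saline. The vinblastine and vincristine hearts were all below the saline hearts, and of the colchicine hearts only replicate 1 reached into the saline range. Hspe1 fell by 0.38 ± 0.07 with vinblastine (adjusted p = 0.000183), by 0.54 ± 0.07 with vincristine (adjusted p = 6.32e-08) and by 0.54 ± 0.07 with colchicine (adjusted p = 1.05e-08), and by 0.64 with colchicine without the 10 arrays (adjusted p = 5.03e-12). Across the 14 group means the 2 genes had a Pearson correlation of 0.979, and over the deviations of the 82 arrays from their group means one of 0.820, both of which include what arrays share in scaling. The cardiomyocyte markers moved in part with them: 3 of 6 tested fell with colchicine, 2 of 6 with vincristine and 0 of 6 with vinblastine, and their summed intensity ran between 105787 and 133948, 109649 and 123029, and 117890 and 135032 in those groups, against 119063 and 141574 with saline. The summed intensity of 4 atrial markers ran between 2108 and 11714 with colchicine, 4210 and 12067 with vincristine and 3425 and 6574 with vinblastine, against 1283 and 5035 with saline, and 1 of the 4 rose with each drug. That sum is mostly Nppa, which averaged 3216 over all arrays where Myl7 averaged 260, Sln 198 and Myl4 166, and the median log2 difference of the 4 was below 0, at -0.56, -0.65 and -0.39 with the drugs in that order. Of 3 red cell markers tested, 1 fell with colchicine, 3 with vincristine and 3 with vinblastine (median -0.39, -1.15 and -0.91). Of 4 macrophage markers 2 rose and 1 fell with colchicine, 3 rose with vincristine and 2 rose with vinblastine. Of 5 fibroblast markers 2 rose and 3 fell with colchicine, 1 rose and 2 fell with vincristine, and 2 rose with vinblastine. Of 5 endothelium markers 3 rose and 1 fell with colchicine, 2 rose and 1 fell with vincristine, and 2 rose with vinblastine. Of 3 skeletal muscle markers tested, 1 fell with colchicine, 2 with vincristine and 1 with vinblastine. Of 5 smooth muscle and pericyte markers 1 fell with colchicine, 1 with vincristine and 0 with vinblastine. The part of these marker lists in the fall of the chaperonin genes was not tested.

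**Figure D3:**
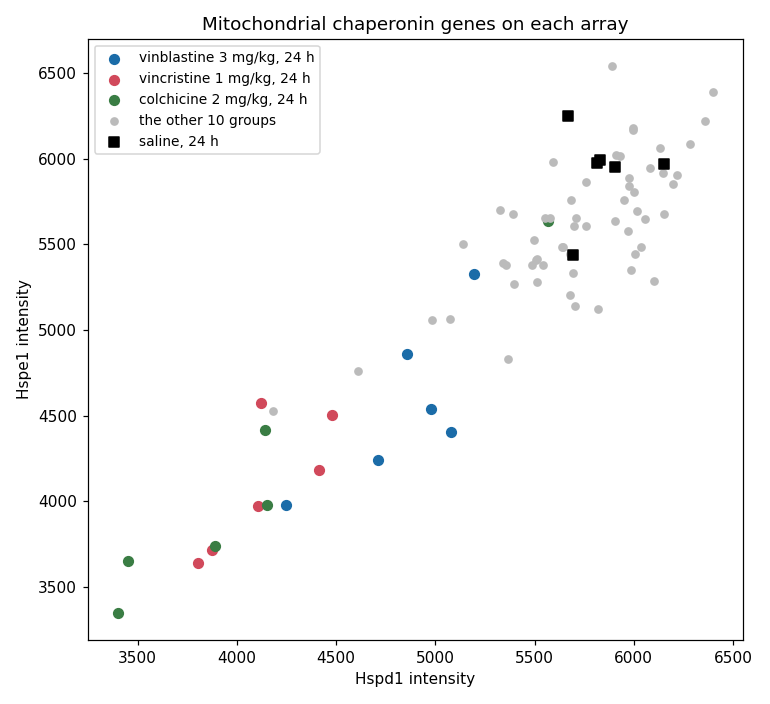
Hspe1 intensity against Hspd1 intensity on each of the 82 arrays (1 point a rat), with the 3 higher-dose groups and saline at 24 h marked and the other 10 groups in grey. The treated hearts of the 24 h higher doses lie low on both axes, except the colchicine heart near 5567 on the Hspd1 axis and 5637 on the Hspe1 axis.

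Hsph1, the Hsp110 protein that helps Hsp70 exchange its nucleotide, had a lowest, median and highest intensity of 386, 567 and 582 with vinblastine 3 mg/kg, 405, 421 and 456 with vincristine 1 mg/kg, 440, 573 and 761 with colchicine 2 mg/kg and 561, 813 and 955 with saline. All vincristine hearts were below all saline hearts, while the vinblastine and colchicine groups overlapped the saline range, mostly at its low end. Colchicine replicate 1, the array nearest to the lower dose, read 761, above saline replicates 1 and 2 at 561 and 660. Hsph1 fell by 0.56 ± 0.11 with vinblastine (adjusted p = 0.000116), by 0.82 ± 0.11 with vincristine (adjusted p = 1.33e-08) and by 0.40 ± 0.11 with colchicine (adjusted p = 0.00116). With vincristine its level was 56.5% of saline by the log2 difference. A second probe set of Hsph1 fell in the same 3 comparisons, by 0.63, 0.87 and 0.33 (adjusted p = 0.000136, 5.1e-08 and 0.0195 in a fit of all probe sets).

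Hspb1, the small heat shock protein that binds actin filaments as well as unfolded proteins, was the member with the widest range, from 2532 to 15880 over the 82 hearts. At 24 h its 6 colchicine 2 mg/kg hearts read 3250, 9783, 10948, 13602, 15053 and 15880, against 3277, 3448 and 4150 as the lowest, median and highest with saline. Replicate 1, the array that resembled the lower dose over all genes, was below every saline heart, and the other 5 were all above them. Hspb1 rose by 1.54 ± 0.24 on the log2 scale with colchicine (adjusted p = 2.15e-07), or by 1.86 without the 10 arrays (adjusted p = 6.31e-17).

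With vincristine 1 mg/kg the lowest, median and highest Hspb1 intensity was 3843, 5770 and 7989, and 1 of these hearts overlapped the saline range. Hspb1 rose by 0.69 ± 0.24 with vincristine (adjusted p = 0.0221), and this call was lost when replicate 4 (adjusted p = 0.0512) or replicate 5 (adjusted p = 0.0709) was left out. With vinblastine 3 mg/kg it was 2555, 3541 and 4586, on both sides of the saline hearts, with a difference of -0.05 and a 95% interval from -0.53 to 0.43 (adjusted p = 0.939). The doses of the 2 vinca alkaloids differ, so no test was made between them. Hspb1 levels moved with neutrophil markers in part: the summed intensity of 3 of these genes was 149 to 631 with colchicine, 270 to 622 with vincristine and 156 to 216 with vinblastine, against 86.0 to 122 with saline. Both neutrophil markers tested (S100a8 and S100a9) rose with colchicine and with vincristine, and 0 of 2 changed with vinblastine. Cxcr2, the third, was too dim to test, and their part in the Hspb1 rise was not tested.

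Cryab, the other small heat shock protein and a chaperone of desmin and titin, rose slightly with colchicine. Its lowest, median and highest intensities were 20552, 24442 and 26215 with colchicine 2 mg/kg and 19246, 20953 and 21974 with saline, a rise of 0.19 ± 0.06 (adjusted p = 0.00552, or 0.0532 in a fit of these 2 groups alone). Of the colchicine hearts 2 lay within the saline range and 4 above it. With vinblastine 3 mg/kg the difference was 0.13 ± 0.06 (adjusted p = 0.156) and with vincristine 1 mg/kg 0.05 ± 0.06 (adjusted p = 0.545). Both passed the test under quantile normalization, at 0.19 (adjusted p = 0.000346) and 0.22 (adjusted p = 6.25e-06). Whether Cryab passed with the vinca alkaloids therefore depends on the scaling.

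Dnajb1, a J-domain protein that hands clients to Hsp70 and is itself heat inducible, had lowest, median and highest intensities of 290, 323 and 354 with vincristine 1 mg/kg, 307, 335 and 366 with colchicine 2 mg/kg and 308, 408 and 450 with saline. All hearts of both treated groups lay below the saline median, and 1 saline heart, replicate 6, read as low as they did. Dnajb1 fell by 0.28 ± 0.09 with vincristine (adjusted p = 0.012) and by 0.22 ± 0.09 with colchicine (adjusted p = 0.0338), and was at -0.02 ± 0.09 with vinblastine 3 mg/kg (adjusted p = 0.92). Its second probe set was at -0.26 and -0.15 with vincristine and colchicine and passed in neither (adjusted p = 0.0657 and 0.267). The colchicine call was lost when any of 7 of the 12 hearts compared was left out, with an adjusted p of up to 0.0993. The Dnajb1 mean of saline hearts at 24 h, 397, was the highest of the 14 groups, and that of saline hearts at 6 h was 344. With the lower doses at 24 h the gene averaged 382 (vinblastine), 353 (vincristine) and 342 (colchicine).

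Hsp90ab1, the constitutive cytosolic Hsp90, averaged 9059 ± 639 with colchicine 2 mg/kg and 8122 ± 793 with saline at 24 h (SD, n = 6 each), a rise of 0.16 ± 0.06 (adjusted p = 0.0356). The groups overlapped, leaving out any of 6 of the 12 hearts ended the call (adjusted p up to 0.175), and the second probe set was at 0.12 ± 0.24 (adjusted p = 0.733). With vinblastine and vincristine it was at 0.00 and -0.08 (adjusted p = 0.985 and 0.38). Dnaja1, a J-domain partner of cytosolic Hsp70, passed the test in none of the 22 comparisons, and its largest 24 h difference from saline was -0.17 ± 0.09 with vincristine 1 mg/kg (adjusted p = 0.136, below the saline mean in 6 of 6 hearts). With array weights this one was -0.21 and passed (adjusted p = 0.0215).

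**Figure D4:**
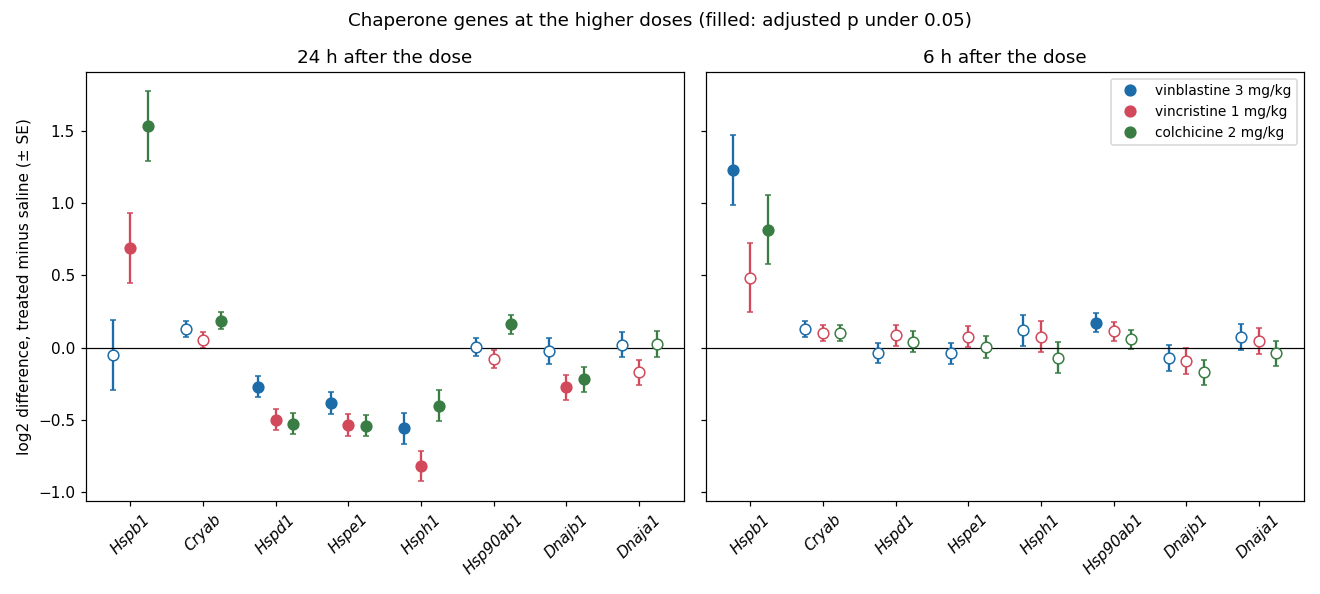
Difference of each chaperone gene between the higher-dose and the saline hearts on the log2 scale (points, with SE from the fit), at 24 h (left) and 6 h (right). Filled points passed an adjusted p of 0.05: Hspd1, Hspe1 and Hsph1 are filled and below 0 for all 3 drugs at 24 h and open and near 0 at 6 h, while Hspb1 is filled at 6 h for vinblastine and colchicine.

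At 6 h neither the chaperonin genes nor Hsph1 passed the test with any of the 3 drugs, and Hspb1 was the member that stood out. Vinblastine 3 mg/kg raised 2 of 8 members and lowered 0, where 15.7% of all genes rose and 7.67% fell (23.3% either way; 52.8% of the called genes rose under quantile normalization, against 67.1% as deposited). Colchicine 2 mg/kg raised 1 and lowered 0, where 4.89% rose and 4.37% fell (9.27% either way). With vincristine 1 mg/kg 0 of 8 members passed in the limma fit, with 1 at an unadjusted p under 0.05, where 2.05% of all genes rose and 1.25% fell (3.3% either way; 47.7% of these rose under quantile normalization, against 62.0% as deposited). The median member difference was 0.10, 0.02 and 0.08 with vinblastine, colchicine and vincristine, and that of all genes 0.01, 0.00 and 0.01.

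The lowest, median and highest Hspb1 intensity at 6 h was 5422, 6489 and 15374 with vinblastine 3 mg/kg and 2726, 3088 and 3662 with saline. All 6 vinblastine hearts were above all saline hearts, and Hspb1 rose by 1.23 ± 0.24 (adjusted p = 0.000126). The brightest was replicate 1, one of the 10 arrays that lay nearer another group, and without those the rise was 1.02 (adjusted p = 3.67e-07). With colchicine 2 mg/kg Hspb1 read 2676, 4147, 5555, 5815, 7104 and 11786 in the 6 hearts, of which 1, replicate 4, was below every saline heart and the other 5 were above them all. Replicate 4 is also one of the 10 arrays. Hspb1 rose by 0.82 ± 0.24 (adjusted p = 0.0185), or by 1.03 without the 10 arrays (adjusted p = 2.19e-07), and leaving out the brightest heart (adjusted p = 0.117) or the next (adjusted p = 0.0593), or fitting these 2 groups alone (adjusted p = 0.0586), ended the call.

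With vincristine 1 mg/kg Hspb1 read 2644, 4664 and 5978 as the lowest, median and highest at 6 h, with 5 of 6 hearts above all saline hearts. The difference was 0.48 ± 0.24 (adjusted p = 0.263). Without the 10 arrays, one of which was the dimmest of these hearts, it was 0.63 (adjusted p = 0.00216). The rule that chose those arrays tightens the groups by itself, so that lower p-value is no separate check. Neutrophil markers were high in the same groups: their summed intensity was 848 to 1539 with vinblastine, 82.5 to 1084 with colchicine and 85.3 to 803 with vincristine, against 85.6 to 147 with saline. Of the 2 markers tested, 2 rose with vinblastine, 2 with colchicine and 1 with vincristine, and their part in the Hspb1 levels was not tested.

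Hsp90ab1 averaged 8326 ± 884 with vinblastine 3 mg/kg and 7375 ± 654 with saline at 6 h (SD, n = 6 each), a rise of 0.17 ± 0.06 (adjusted p = 0.0411). The call was lost on leaving out any of 7 of the 12 hearts, and the difference was 0.12 without the 10 arrays (adjusted p = 0.229) and 0.08 under quantile normalization (adjusted p = 0.292). None of the other 6 members passed with any of the 3 drugs at 6 h. Hspd1 differed from saline by -0.04, 0.08 and 0.04 with vinblastine, vincristine and colchicine at their higher doses, with 95% intervals between -0.18 and 0.23. Hspe1 differed by -0.04, 0.08 and 0.00, with intervals between -0.19 and 0.22 (under quantile normalization the vinblastine value was -0.17, adjusted p = 0.0472), and Hsph1 by 0.12, 0.08 and -0.07, with intervals between -0.28 and 0.33.

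Whether the change at 24 h differed from that at 6 h was tested with an interaction term. With vinblastine 3 mg/kg 3 of 8 members passed, all negative (4.44% of all genes passed), with vincristine 1 mg/kg 3 of 8, all negative (12.3%), and with colchicine 2 mg/kg 2 of 8, both negative (18.9%). Of all genes that passed, 40.04%, 28.8% and 33.3% were positive, and under quantile normalization 62.1%, 54% and 47.3%. Under that normalization Cryab also passed, as a positive change, with colchicine at 0.20 (adjusted p = 0.00492) and with vincristine at 0.23 (adjusted p = 0.00427). As deposited, Cryab, Dnaja1, Dnajb1 and Hsp90ab1 passed with none of the 3 drugs, with changes between -0.22 (Dnaja1, vincristine) and 0.10 (Hsp90ab1, colchicine) and a lowest adjusted p of 0.166. Hspd1 moved by -0.59 ± 0.10 (24 h minus 6 h) with vincristine (adjusted p = 0.000109) and by -0.57 ± 0.10 with colchicine (adjusted p = 4.54e-05). With vinblastine it was at -0.23 ± 0.10 (adjusted p = 0.172), and at -0.31 without the 10 arrays (adjusted p = 0.0135). Hspe1 moved by -0.61 ± 0.11 with vincristine (adjusted p = 0.000103), by -0.54 ± 0.11 with colchicine (adjusted p = 0.000136) and by -0.34 ± 0.11 with vinblastine (adjusted p = 0.0442). The last of these was at -0.17 (adjusted p = 0.274) under quantile normalization and was lost on leaving out any of 16 of 24 hearts. Hsph1 moved by -0.90 ± 0.15 with vincristine (adjusted p = 7.42e-05) and by -0.68 ± 0.15 with vinblastine (adjusted p = 0.00418), and was at -0.33 ± 0.15 with colchicine (adjusted p = 0.114, or 0.0302 without the 10 arrays). Leaving out the 10 arrays tightens the groups by the rule itself, so the lower p-values without them are no separate check.

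For Hspb1 the interaction passed with vinblastine alone of the 3 drugs, and the drugs were not tested against each other. With vinblastine 3 mg/kg it averaged 3450 ± 723 at 24 h and 7988 ± 3768 at 6 h (SD, n = 6 each), and the change at 24 h minus that at 6 h was -1.28 ± 0.34 (adjusted p = 0.0187). With colchicine 2 mg/kg it averaged 11419 ± 4637 at 24 h and 6181 ± 3138 at 6 h, with a change of 0.72 ± 0.34 that did not pass (adjusted p = 0.136). Without the 10 arrays the change was 0.84 (adjusted p = 0.00175). That lower p-value is no separate check, since leaving them out tightens the groups by the rule itself. With vincristine 1 mg/kg the means were 5837 ± 1483 at 24 h and 4591 ± 1288 at 6 h, with a change of 0.21 and a 95% interval from -0.47 to 0.88 (adjusted p = 0.762). Without the 6 arrays whose label ends in _2, an ending the labels do not explain, the vinblastine change was -1.06 (adjusted p = 0.0687). In the saline hearts themselves, at 24 h against 6 h, 0 of 8 members passed in limma, 2 had an unadjusted p under 0.05 (Hsp90ab1 at 0.14 and Dnajb1 at 0.20), and 0.00883% of all genes, 1 gene, passed.

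The 2 doses of each drug were compared next. At 24 h the higher against the lower dose moved 3 of 8 members with vinblastine (5.49% of all genes passed), 4 with vincristine (23.9%) and 6 with colchicine (41.5%). Hspd1 was at 4133 ± 272 with vincristine 1 mg/kg (SD, n = 6) and at 5513, 5553, 5700, 5999 and 6080 in the 5 hearts given 0.1 mg/kg, a fall of 0.48 ± 0.08 (adjusted p = 1.54e-06) with no overlap. Hspe1 fell by 0.48 ± 0.08 (adjusted p = 4.12e-06) and Hsph1 by 0.72 ± 0.11 (adjusted p = 1.22e-06) in the same comparison, again with no overlap. Hspb1 averaged 5837 ± 1483 at 1 mg/kg (n = 6) and 3250 ± 176 at 0.1 mg/kg (n = 5), a rise of 0.80 ± 0.25 (adjusted p = 0.0138) with no overlap. Cryab was at 0.09, Dnaja1 and Dnajb1 at -0.12 and Hsp90ab1 at -0.04, and these 4 did not pass (lowest adjusted p = 0.31).

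Between colchicine 2 and 0.2 mg/kg at 24 h Hspd1 fell by 0.55 ± 0.07 (adjusted p = 3.57e-09), Hspe1 by 0.44 ± 0.07 (adjusted p = 1.74e-06) and Hsph1 by 0.40 ± 0.11 (adjusted p = 0.00145). Hspb1 rose by 1.39 ± 0.24 (adjusted p = 2.39e-06), Hsp90ab1 by 0.19 ± 0.06 (adjusted p = 0.0146, or 0.251 with the mean of its probe sets) and Cryab by 0.15 ± 0.06 (adjusted p = 0.0351, lost on leaving out any of 8 of 12 hearts). Dnaja1 was at 0.11 (adjusted p = 0.351) and Dnajb1 at -0.01 (adjusted p = 0.96). Between vinblastine 3 and 0.5 mg/kg at 24 h Hspd1 fell by 0.26 ± 0.07 (adjusted p = 0.0165), Hspe1 by 0.31 ± 0.07 (adjusted p = 0.00492) and Hsph1 by 0.36 ± 0.11 (adjusted p = 0.0291), and Hspb1 was at 0.01 (adjusted p = 0.994). Cryab, Dnaja1, Dnajb1 and Hsp90ab1 were between 0.01 and 0.13 there and did not pass (lowest adjusted p = 0.206). Leaving out replicate 5 of vinblastine 3 mg/kg, which was the dimmest of its group for all 3 genes, ended the Hspd1 (adjusted p = 0.0586) and Hsph1 (adjusted p = 0.127) calls. Replicate 2 of that group or replicate 3 of vinblastine 0.5 mg/kg also ended the Hsph1 call when left out, as did a fit of the 2 groups alone (adjusted p = 0.0594), and replicate 6 of vinblastine 0.5 mg/kg the Hspd1 call. The second probe set of Hsph1 was at -0.53 between these doses (adjusted p = 0.00208 in a fit of all probe sets).

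At 6 h the higher against the lower dose moved Hspb1 with vinblastine (1 of 8 members, 8.53% of all genes), 0 of 8 members with vincristine (2.81% of all genes; 1 member at an unadjusted p under 0.05 in limma) and 2 of 8 with colchicine (9.25%). Under quantile normalization 53.8% of the genes called with vinblastine and 46.7% of those with vincristine rose, against 68.2% and 57.2% as deposited. Hspb1 rose by 1.05 ± 0.24 with vinblastine (adjusted p = 0.00447), a call lost in a fit of the 2 groups alone (adjusted p = 0.107) and without the _2 arrays (adjusted p = 0.125). With vincristine it was at 0.57 ± 0.25 (adjusted p = 0.219). Without the 10 arrays it was at 0.71 (adjusted p = 0.000838), a lower p-value that is no separate check. Between colchicine 2 and 0.2 mg/kg Hspb1 rose by 0.71 ± 0.24 (adjusted p = 0.046) and Hsph1 fell by 0.32 ± 0.11 (adjusted p = 0.0413). Hsph1 averaged 664 ± 47.8 at 2 mg/kg and 839 ± 130 at 0.2 mg/kg (SD, n = 6 each), against 698 ± 56.0 in saline hearts, so its lower-dose hearts were the high ones. Both colchicine calls were lost on leaving out single hearts, Hsph1 with any of 7 of 12 (adjusted p up to 0.149) and Hspb1 with any of 8 of 12 (up to 0.255). The second probe set of Hsph1 was at -0.44 in this comparison (adjusted p = 0.0103 in a fit of all probe sets). The other members did not pass in these comparisons, with differences between -0.14 (Dnaja1 and Dnajb1, colchicine) and 0.14 (Hsp90ab1, vinblastine) and a lowest adjusted p of 0.128.

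At the lower doses 0 of 8 members passed against saline with any drug at either time in limma, with 1 member at an unadjusted p under 0.05 in each colchicine comparison and 0 in the others. At 24 h 0% of all genes passed with each of the 3 drugs, and at 6 h 0.0353% with vinblastine 0.5 mg/kg, 0% with vincristine 0.1 mg/kg and 0.274% with colchicine 0.2 mg/kg. The member differences lay between -0.21 (Dnajb1, colchicine 0.2 mg/kg at 24 h) and 0.25 (Hsph1, colchicine 0.2 mg/kg at 6 h). Single hearts did stand out for Hspb1. Replicate 5 of vinblastine 0.5 mg/kg at 24 h read 5418 where the other 5 read 2801 to 3401, and replicate 6 of the same dose at 6 h read 6143 where the others read 2801 to 3682. Both are among the 10 arrays that lay nearer another group, in each case nearest to colchicine 2 mg/kg at 6 h. Another of the 10 arrays is replicate 6 of colchicine 0.2 mg/kg at 24 h, nearest to vincristine 1 mg/kg at 6 h. It read 5705 for Hspb1 where the others of its group read 3270 to 4303.

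The other chaperones and cochaperones were taken from 7 lists of 55 genes, of which 51 were tested, 2 were too dim and 2 were not found. At 24 h 7 rose and 6 fell with vinblastine 3 mg/kg, 8 rose and 17 fell with vincristine 1 mg/kg, and 15 rose and 18 fell with colchicine 2 mg/kg. Their median log2 difference was 0.00, -0.12 and 0.01. At 6 h 15 rose and 2 fell with vinblastine, 3 rose and 0 fell with vincristine, and 6 rose and 1 fell with colchicine. At 24 h 5.29% of all tested genes rose and 4.28% fell with vinblastine, 12% and 18.4% with vincristine, and 19.3% and 25.3% with colchicine. The shares at 6 h were 15.7% and 7.67%, 2.05% and 1.25%, and 4.89% and 4.37% with the drugs in that order. These shares apply to each list below, and the lists were chosen with earlier results of these data known.

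Of 10 Hsp90 cochaperones and immunophilins tested, 3 fell with vinblastine, 7 with vincristine and 7 with colchicine at 24 h, and 1 rose, with colchicine. Fkbp4, an immunophilin that rides with Hsp90 on steroid receptors and binds microtubule motors, averaged 882, 536 and 629 with vinblastine, vincristine and colchicine at the higher doses and 1601 with saline. It fell by 0.86 ± 0.18 with vinblastine (adjusted p = 0.000416), by 1.56 ± 0.18 with vincristine (adjusted p = 3.56e-10) and, with colchicine, to 35.3% of saline (adjusted p = 2.08e-10). Stip1, which bridges Hsp70 and Hsp90, fell by 0.54 ± 0.06 with vincristine (adjusted p = 4.31e-10) and Unc45b, the myosin chaperone of striated muscle, by 0.72 ± 0.10 with colchicine (adjusted p = 4.02e-08). The one that rose was Ptges3 (p23), by 0.42 ± 0.09 (adjusted p = 0.00014).

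Among 7 tested relatives of Hsp70 and Hsp110, 2 fell and 1 rose with vinblastine, 4 fell and 1 rose with vincristine, and 5 fell and 1 rose with colchicine at 24 h. Hspa4, an Hsp110 protein like Hsph1, fell by 0.42 ± 0.13 (adjusted p = 0.0269), 0.75 ± 0.13 (adjusted p = 5.66e-06) and 0.69 ± 0.13 (adjusted p = 9.85e-06) with the 3 drugs in that order. Its close relative Hspa4l fell by 0.37, 0.55 and 0.60, and the one that rose was Hspa13, by 0.24, 0.30 and 0.33. Hspa1a, the stress-inducible Hsp70, is named here after its values were seen. It passed in none of the 6 higher-dose comparisons, with differences between -0.41 and 0.44 (adjusted p between 0.391 and 0.985), and its 6 colchicine hearts at 6 h were scattered, at 672 ± 701 against 364 ± 41.4 with saline (SD, n = 6 each).

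Hspa9 of the Hsp70 list, the mitochondrial Hsp70 (mortalin), fell at 24 h by 0.30 ± 0.09 with vincristine (adjusted p = 0.0109) and by 0.35 ± 0.09 with colchicine (adjusted p = 0.0012), and Trap1, the mitochondrial Hsp90, by 0.25 ± 0.07 (adjusted p = 0.00258) and 0.30 ± 0.07 (adjusted p = 0.000166). Grpel1 of the Hsp70 cofactor list, the nucleotide exchange factor of mortalin, fell by 0.21 and 0.24 (adjusted p = 0.028 and 0.00876). None of the 3 passed with vinblastine (lowest adjusted p = 0.13). In the list of 7 mitochondrial and endoplasmic reticulum relatives 2 rose and 0 fell with vinblastine, 0 rose and 1 (Trap1) fell with vincristine, and 2 rose and 1 (Trap1) fell with colchicine at 24 h. Its mitochondrial members Clpb, Clpp and Lonp1 passed with none of the 3 drugs (lowest adjusted p = 0.0734). The ones that rose were the 2 reticulum chaperones Hspa5 (BiP), by 0.51 ± 0.12 with vinblastine (adjusted p = 0.00136) and 0.73 ± 0.12 with colchicine (adjusted p = 2.85e-07), and Hsp90b1 (Grp94), by 0.38 and 0.55 (adjusted p = 0.00959 and 9.72e-06).

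Of 9 J-domain proteins tested, 2 rose with vinblastine, 3 rose and 2 fell with vincristine, and 5 rose and 2 fell with colchicine at 24 h. Of all genes, 12% rose and 18.4% fell with vincristine there, and 19.3% rose and 25.3% fell with colchicine. At 6 h 4, 2 and 2 of the 9 rose and 0 fell with the drugs in that order. Dnajb5 rose by 1.45 ± 0.23 with vinblastine (adjusted p = 6.84e-06), 0.93 ± 0.23 with vincristine (adjusted p = 0.0149) and 1.34 ± 0.23 with colchicine (adjusted p = 8.33e-05) at 6 h, and Dnajb4 by 1.17, 0.92 and 1.12. At 24 h Dnajb5 had risen by 0.95 ± 0.23 with vincristine (adjusted p = 0.000853) and 1.42 ± 0.23 with colchicine (adjusted p = 5.01e-07), and Dnajb9, which works with BiP, by 0.85 and 0.65 with vinblastine and vincristine (adjusted p = 8.32e-05 and 0.000974) and most with colchicine (adjusted p = 4.54e-08). These are the same family as Dnajb1 and Dnaja1, which did not rise in any comparison.

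Among 5 other small heat shock proteins, Hspb7, a heart-rich member that binds the actin filament, rose at 24 h by 0.32 ± 0.10 with vinblastine (adjusted p = 0.0292), 0.59 ± 0.10 with vincristine (adjusted p = 2.88e-06) and 0.65 ± 0.10 with colchicine (adjusted p = 1.18e-07). Hspb8 rose at 6 h by 0.55 ± 0.11 with vinblastine (adjusted p = 0.000102) and 0.40 ± 0.11 with colchicine (adjusted p = 0.00829), and its partner in selective autophagy, Bag3, by 0.39 and 0.30 (adjusted p = 0.00103 and 0.0238). Hspb3 was the one that fell, by 0.68 ± 0.15 with colchicine at 24 h (adjusted p = 0.000172). Of the 5, 2, 2 and 3 rose at 24 h with vinblastine, vincristine and colchicine, and 3, 0 and 2 at 6 h. Bag3 is from the list of 9 Hsp70 cofactors. Of these 1 fell with vinblastine, 1 rose and 2 fell with vincristine, and 2 rose and 1 fell with colchicine at 24 h. At 6 h 3, 0 and 1 of the 9 rose and 0 fell with the drugs in that order. Of the 4 regulators tested, 0 passed with vinblastine at 24 h, and 1 rose and 1 fell with vincristine and likewise with colchicine. At 6 h 1 rose and 0 fell with each drug. The regulator that rose at 6 h was Hsf2, a heat shock factor, by 0.92 ± 0.17 with vinblastine (adjusted p = 4.34e-05), 0.60 ± 0.17 with vincristine (adjusted p = 0.0266) and 1.03 ± 0.17 with colchicine (adjusted p = 4.99e-05). The heat shock factor Hsf1, named after its values were seen, passed in none of the 6 higher-dose comparisons (adjusted p between 0.184 and 0.971), with differences between -0.23 and 0.03.

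**Figure D5:**
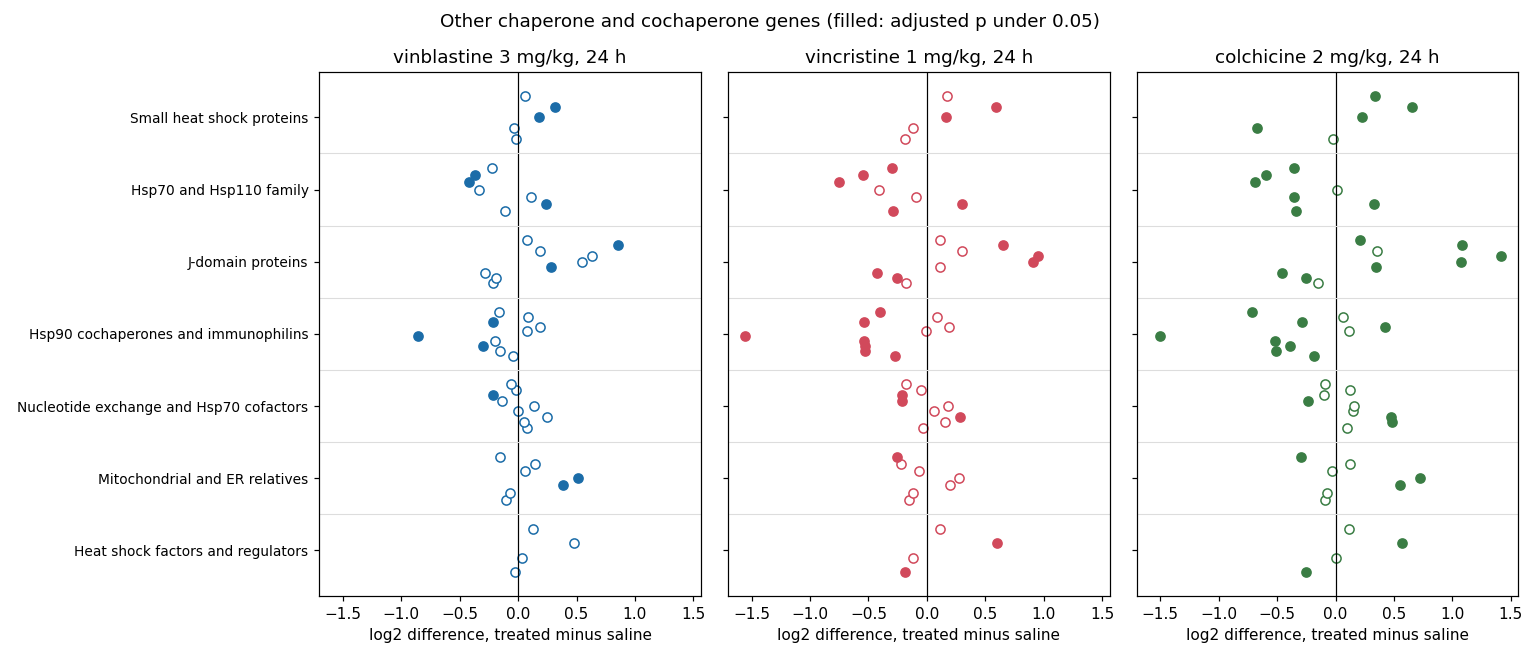
Log2 difference from saline at 24 h of 51 other chaperone and cochaperone genes in 7 lists (rows), for each drug at its higher dose (panels), 1 point a gene. Filled points passed an adjusted p of 0.05, and Fkbp4 is the lowest point in each panel, at -0.86 with vinblastine and -1.56 with vincristine.

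The genes whose 14 group means ran most like each member's were named by Pearson correlation, as a description: the points share their arrays and their scaling. Hspd1 was most like Sh3bgr (0.989) and Slc2a4, the insulin-responsive glucose transporter (0.988), and Hspe1 like Sema3c (0.987) and Ank2 (0.985). Hsph1 was most like Prkar2a (0.960) and Memo1 (0.956), and Hspb1 like C3h15orf48 (0.982) and Myc, the growth transcription factor (0.981). Cryab was most like Tmed2 (0.965) and Mustn1 (0.946), Hsp90ab1 like Rpsa (0.942) and Eef1g (0.936) and Dnajb1 like Atox1 (0.925) and Kdm2b (0.896). Dnaja1 had the weakest best match of the 8 members, Prpf38b (0.798) and then Odf2 (0.787).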

How the data were processed

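Heart RNA of 82 rats in 14 groups was measured on Affymetrix 3' expression arrays from biotinylated cRNA, per the labels' protocols. The authors deposited 1 table of linear intensity values for 31099 probe sets. The array software, background correction and normalization are not given in the sources used here. Values were taken as deposited, and log2(intensity + 16) was computed. Of the probe sets, 20826 had 1 gene symbol in the platform annotation, and the brightest per gene was kept (14217 genes). Genes above the 40th percentile of their array on at least 5 arrays were tested (11319).

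Groups came from the sample titles. One linear model over all groups was fitted with limma 3.58.1 in R 4.3.3 (lmFit, eBayes, 68 residual degrees of freedom, prior 4.67), with Benjamini-Hochberg adjustment and a threshold of 0.05, and 22 comparisons were taken from it. The fit was tested on simulated data. Same-numbered animals did not deviate together in most pairs: 30 of 110 same-numbered pairs correlated above 0.1, so replicate numbers were not used as pairs. In 0 of 19 comparisons were all pairs above it, but with vincristine 0.1 mg/kg against saline at 6 h 4 of 5 were. An array was counted as nearer another group where its distance over all genes to its own group was over 1.3 times that to the nearest other group, a rule chosen after seeing the data.

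By the rule for naming genes, the text gives every member, up to 3 genes of a list and comparison with the largest change past the threshold, and the 2 genes most like each member. Members that did not pass are in part given as a range. Ptges3 and Hspa13 with colchicine, Hspa9 with vincristine, and Clpb, Clpp and Lonp1 lie outside that rule and were named after their values were seen, as were genes so described in the text. The members and lists were chosen with earlier results of these data known. Alternatives tried were the pseudocount, the filter, quantile normalization, the mean of probe sets, array weights, a replicate block, fits of the compared groups alone, and leaving out single or doubtful arrays. The number of arrays, not a read depth, limits the precision. Promoter sequences and starts are RefSeq's.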

Additional observations from a re-analysis of the deposited data

Results flagged for a closer look

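Across 112 sets of 1 gene in 1 group, 10 held an animal whose gap to the nearest other passed Dixon's 95% critical value, where chance alone gives about 1 in 20. Hspb1 accounted for 4 of them. Replicate 1 of colchicine 2 mg/kg at 24 h read 3250 where the others read 9783 to 15880, and it was one of the 10 arrays nearer another group. Replicate 6 of vinblastine 0.5 mg/kg at 6 h read 6143 and replicate 5 of vinblastine 0.5 mg/kg at 24 h read 5418, and both were among those 10 arrays too. Replicate 3 of saline at 24 h read 4150, with the others at 3277 to 3524.

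For Hspd1, replicate 1 of vinblastine 3 mg/kg at 6 h read 4184 where the others read 5326 to 5997. For Hspe1, replicate 6 of saline at 24 h read 5441, with the others at 5955 to 6251. Hsph1 read 929 in replicate 5 of vincristine 0.1 mg/kg at 24 h and at most 703 in the others. Hsp90ab1 read 8344 in replicate 3 of vincristine 1 mg/kg at 24 h, with the others at 7416 to 7645. Dnajb1 read 461 in replicate 2 of colchicine 0.2 mg/kg at 24 h, with the others at 289 to 336. Cryab read 22320 in replicate 4 of vincristine 0.1 mg/kg at 24 h, with the others at 19504 to 20102.

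The change at 24 h differed from the change at 6 h by the interaction test in 8 cases. For Hspd1 the difference was -0.59 with vincristine 1 mg/kg and -0.57 with colchicine 2 mg/kg, and for Hspe1 it was -0.61, -0.54 and, with vinblastine 3 mg/kg, -0.34. For Hsph1 it was -0.90 with vincristine and -0.68 with vinblastine. For Hspb1 it was -1.28 with vinblastine.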

How the results depend on the processing

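The falls of Hspd1, Hspe1 and Hsph1 at 24 h with each higher dose kept their direction and passed the test under all 11 alternative settings and each single animal left out, as did the Hspb1 rises with colchicine 2 mg/kg at 24 h and vinblastine 3 mg/kg at 6 h. Counts of members past the threshold that moved by more than 1.5 times are given next, and the causes were not tested. With vinblastine 3 mg/kg at 6 h the count was 1 in place of 2 with probe sets averaged, with only the compared groups, under array weights, without the _2 arrays and without the 10 arrays nearer another group, and 1 to 3 with single animals left out. Vinblastine 3 against 0.5 mg/kg at 6 h gave 0 in place of 1 with only the compared groups and without the _2 arrays. Colchicine 2 mg/kg at 6 h gave 0 in place of 1 with only the compared groups, and 0 to 1 with single animals left out. Colchicine 2 against 0.2 mg/kg at 6 h gave 1 in place of 2 with no filter, with only the compared groups and with the replicate block (Hspb1 adjusted p = 0.053), and 0 to 2 with single animals left out. The replicate block changed no other member's call, and over the 19 comparisons of 2 groups 24 of 110 same-numbered pairings were the closest for their array. Vincristine 1 mg/kg at 6 h gave 1 in place of 0 without the 10 arrays, against saline and against 0.1 mg/kg. The colchicine change at 24 h minus that at 6 h gave 4 in place of 2 with array weights and without the 10 arrays, and 2 to 4 with single animals left out. Vinblastine 3 against 0.5 mg/kg at 24 h gave 1 to 3 with single animals left out. Within that limit, colchicine 2 mg/kg at 24 h gave 5 in place of 7 with probe sets averaged and with only the compared groups, and the vinblastine change at 24 h minus that at 6 h gave 2 to 4 over all settings in place of 3. Quantile normalization changed 9 of 176 member calls (2 lost, 6 gained, 1 reversed). The Cryab change with vincristine (24 h minus 6 h), at -0.05, was reversed under quantile normalization, at 0.23 (adjusted p = 0.00427). The pseudocounts and the stricter filter changed no member's call. Leaving out the arrays nearer another group was chosen after seeing the data, and it gained 5 member calls and lost 1.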
